A study of Homo sapiens with 16 samples.

Results

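The 9 genes described here encode small GTPases of the RAS family and proteins that read or end their signal. They are the GTPases HRAS, NRAS, RRAS, RRAS2 and MRAS, the RAS-binding effectors RASSF1 and RASSF5, and the GTPase activating proteins NF1 and RASA1. Each was taken by its gene symbol, 1 row per gene, from a table of 39007 genes. The rule uses no measured value, but the set was chosen with earlier results of these data known. RAS proteins are switches that are on when bound to GTP and off when bound to GDP. Exchange factors turn them on, GTPase activating proteins turn them off, and the active form binds effectors such as RAF kinases, PI3 kinase and RASSF proteins. RAS signalling is frequently mutated in bladder cancer, and the T24 bladder cancer cell line carries a mutant HRAS. The values here are per gene and do not separate the mutant from the normal allele.

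RNA was sequenced from T24 cells and from the GRC1 cell line, 1 gemcitabine-resistant line derived from them by repeated rounds of drug exposure and regrowth, a round being called a phase. There were 4 libraries each of the parental phase P0, the early phase P3, the intermediate phase P7 and the late phase P15. All cells were grown in DMEM with serum and antibiotics. The titles of all 16 libraries carry the same tag, NT, which the labels do not explain. Every phase after P0 shares T24 as its origin, and a single selected line stands for gemcitabine resistance in these data. The labels do not say whether the 4 libraries of a phase came from separate cultures, so the p-values measure the spread between these libraries, which may be technical.

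Values are log2(CPM + 1), where CPM is a gene's count scaled to a common library total. The steps between the lowest values put library totals at about 33.9 to 50.0 M counts, and within a phase the libraries correlated across genes with a Pearson's r of 0.9965 to 0.9984. Of 16 urothelial and epithelial markers, 8 were above 1 CPM at P0 and 7 at P15, and their summed level was 2207 to 2279 CPM at P0 and 697 to 776 CPM at P15. The fall lay mainly in KRT7 (means of 957 and 11.5 CPM) and KRT8 (593 and 70.3 CPM). KRT18 went the other way (471 and 633 CPM) and made up most of the sum at P15, and UPK1A was also higher there (0.075 and 1.98 CPM). E-cadherin (CDH1) was at most 0.048 CPM in every phase mean. The summed level of 8 fibroblast markers was 7.26 to 8.45 CPM at P0 and 46.6 to 51.7 CPM at P15, and this difference lay mainly in the collagens COL1A1 (means of 5.01 and 24 CPM) and COL3A1 (listed at 0 in all P0 libraries, mean 21.8 CPM at P15), while PDGFRB had 2.77 and 2.38 CPM and PDGFRA, DCN, LUM and THY1 were below 1 CPM in both. For 6 leukocyte markers the sum was 6.22 to 8.56 CPM at P0 and 0.09 to 0.42 CPM at P15, nearly all of it from CD14 (6.81 and 0.058 CPM), with PTPRC at most 0.014 CPM in a phase mean. Of 4 endothelial markers the sum was 6 to 7.95 CPM at P0, mostly CDH5 (5.69 CPM), and 0.51 to 1.09 CPM at P15. These marker levels changed with the phases, and their part in the results below was not tested. In bulk RNA, fewer cells that express a gene and less RNA per cell cannot be told apart. The sample index in the title of P15 replicate 1 stands apart from those of the other 3 P15 libraries. That of P3 replicate 2 likewise stands apart from those of the other P3 libraries, and some indices occur in more than 1 phase. The labels do not say what the index stands for. Over the 9 genes, P15 replicate 1 differed from the mean of the other 3 P15 libraries by -0.05 to 0.19.

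All 9 genes averaged more than 1 CPM across the libraries and were tested with limma among 13249 such genes, with Benjamini-Hochberg adjustment over all of them. Fold changes are on the log2(CPM + 1) scale, which understates the change of low genes. Between P0 and P3, 6 of the 9 genes passed an adjusted p of 0.05, 3 of them higher and 3 lower, against 68.7% of all tested genes. Between P3 and P7, 4 passed, against 58.2% of all genes. From P7 to P15 all 9 passed, 5 higher and 4 lower, against 86.4% of all genes, and from P0 to P15 the count was 7, against 86.2%. A change of at least 2-fold was seen for 1 of the 9 genes at the first step (4.46% of all genes), 0 at the second (1.83%), 5 at the last step (25.5%) and 4 between P0 and P15 (23.6%). Over non-adjacent phases, 8 passed between P0 and P7 (62.1% of all genes) and 9 between P3 and P15 (87.2%). The median absolute log2 fold change of the 9 genes between P0 and P15 was 0.868, beside 0.512 for all tested genes.

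**Figure D1:**
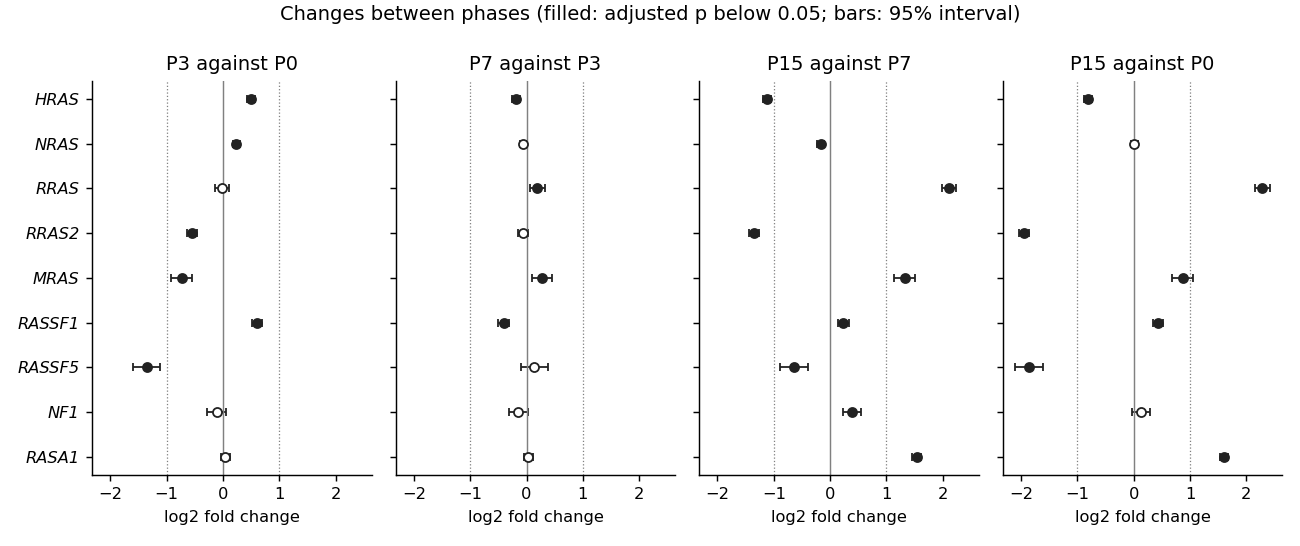
Log2 fold change of each of the 9 genes (x axis, log2 scale) in 4 comparisons of phases, with 95% intervals from limma, 4 libraries per phase. Filled points have an adjusted p below 0.05 and dotted lines mark 2-fold. The step from P7 to P15 holds 5 genes beyond 2-fold, RRAS, RASA1 and MRAS upward and RRAS2 and HRAS downward, and the step from P3 to P7 holds none.

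RRAS, the founding member of the R-RAS subfamily and a regulator of integrin-mediated adhesion, was the gene of the set with the largest rise. It lies on the minus strand at chr19:49635292-49640143 (GRCh38). Its values were 4.72, 5.08, 4.96 and 4.93 in the P0 libraries, 4.94, 5.02, 4.80 and 4.86 at P3, and 5.16, 4.98, 5.11 and 5.14 at P7. At P15 the 4 libraries stood at 7.20, 7.32, 7.11 and 7.20, above all 12 earlier libraries, which lay between 4.72 and 5.16. In CPM the mean was 29.4 ± 3.09 at P0 (SD, n = 4) and 147 ± 8.91 at P15. The step from P7 to P15 was 2.11 (SE 0.06, adjusted p = 6.6e-20 by limma), a 4.32-fold rise, and the difference between P0 and P3 was -0.02 with a 95% interval of -0.15 to 0.11. Between P3 and P7 RRAS was higher by 0.19 (adjusted p = 0.012) although the libraries of both phases overlapped, and without P3 replicate 3 the difference was 0.16 (adjusted p = 0.052).

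RRAS2 (TC21), the close relative of RRAS, moved the other way. The gene lies on the minus strand at chr11:14277922-14364506. Its 4 values were 8.07, 8.11, 8.22 and 8.10 at P0. At P3 they were 7.64, 7.49, 7.62 and 7.57, and at P7 they were 7.5, 7.53, 7.51 and 7.55. The P15 libraries were lower still, at 6.25, 6.20, 6.04 and 6.20. RRAS2 thus came down in 2 steps with a level stretch between them, and the libraries overlapped only between P3 and P7. The first step was -0.55 (SE 0.04, adjusted p = 4.4e-11) and the last -1.35 (adjusted p = 1.2e-19). Over the whole course the level fell 3.87-fold, from 278 ± 12.9 CPM at P0 to 71.2 ± 4.46 CPM at P15 (SD, n = 4). The difference between P3 and P7 was -0.06, with an interval of -0.14 to 0.03.

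The promoter of RRAS2 is shown because the gene fell at least 2-fold between P0 and P15. RefSeq lists 4 start sites of RRAS2, and only the window of the canonical one is printed. The sequence is the 250 bases before the start of its canonical transcript, read 5′ to 3′ on the minus strand, chr11:14359184-14359433, from RefSeq on GRCh38.p14, with matches to SP1 (GGGCGG on either strand) in capitals.
RRAS2: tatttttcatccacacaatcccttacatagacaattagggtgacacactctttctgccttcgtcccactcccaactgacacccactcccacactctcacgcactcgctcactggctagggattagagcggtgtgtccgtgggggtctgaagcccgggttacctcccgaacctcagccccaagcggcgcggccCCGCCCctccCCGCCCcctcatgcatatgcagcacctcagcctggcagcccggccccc
It holds 2 SP1 matches and 13 CpG dinucleotides, where the median of all promoters of that length was 11. GGGCGG occurred in 42.6% of 35116 promoters. No match to AP-1 (TGANTCA), the ETS core (GGAAGT), the E-box (CACGTG) or TATAAA was found in this window. The window of a start site 716 bases from the canonical one held 3 SP1 matches and 32 CpG dinucleotides, and the windows of the others held 4 and 2 CpG dinucleotides and no SP1 match.

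HRAS, the classical RAS gene that is mutated in T24, rose first and fell last. It lies on the minus strand at chr11:532242-537321, on the same chromosome as RRAS2. The P0 libraries had 7.21, 7.24, 7.24 and 7.30, the P3 libraries 7.70, 7.77, 7.73 and 7.76, and the P7 libraries 7.57, 7.47, 7.60 and 7.57. The P15 libraries had 6.48, 6.43, 6.45 and 6.37. No pair of phases overlapped, and the order from high to low was P3, P7, P0 and P15. HRAS was 1.41-fold higher at P3 than at P0 (0.49, SE 0.03, adjusted p = 4.8e-12), and 1.14-fold lower at P7 than at P3 (adjusted p = 4.5e-05). Between P7 and P15 it fell 2.17-fold (-1.12, SE 0.03, adjusted p = 6.3e-20), which left it 1.76-fold below P0 (-0.82, adjusted p = 4.4e-17). In CPM the phase means were 151, 213, 187 and 85.4 in the order of the phases.

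NRAS, the other classical RAS gene of the set (chr1:114704469-114716771, minus strand), ended where it began. Its values at P0 were 7.30, 7.38, 7.36 and 7.33, and at P15 they were 7.37, 7.32, 7.38 and 7.34, with full overlap. The difference was 0.01, with a 95% interval of -0.05 to 0.07. Between these phases it was higher, at 7.58, 7.57, 7.57 and 7.59 at P3 and 7.48, 7.58, 7.52 and 7.51 at P7. The rise from P0 to P3 was 0.24 (SE 0.03, adjusted p = 1.6e-07) and the fall from P7 to P15 was -0.17 (adjusted p = 8.6e-06). P3 and P7 differed by -0.06 (adjusted p = 0.11), or by -0.07 (adjusted p = 0.036) without P7 replicate 2. The range of NRAS over all libraries was the narrowest of the 5 GTPases.

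MRAS, whose active form assembles with SHOC2 and protein phosphatase 1 to dephosphorylate RAF kinases, was per length the lowest of the 5 GTPases in every phase (chr3:138347648-138405534, plus strand). At P0 its values were 2.02, 2.15, 2.01 and 2.09, at P3 they were 1.22, 1.44, 1.35 and 1.33, and at P7 they were 1.62, 1.82, 1.53 and 1.48. At P15 they were 3.04, 2.81, 3.02 and 2.87. The phases did not overlap, and the order from high to low was P15, P0, P7 and P3. MRAS fell by 0.73 from P0 to P3 (SE 0.09, adjusted p = 1.1e-07) and was 2.50-fold higher at P15 than at P7 (1.32, adjusted p = 6.9e-13). The mean was 1.53 CPM at P3 and 6.67 CPM at P15, where a single count was worth 0.02 to 0.0295 CPM. The difference of 0.28 between P3 and P7 (adjusted p = 0.0096) became 0.21 (adjusted p = 0.05, not below the threshold) without P7 replicate 2.

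**Figure D2:**
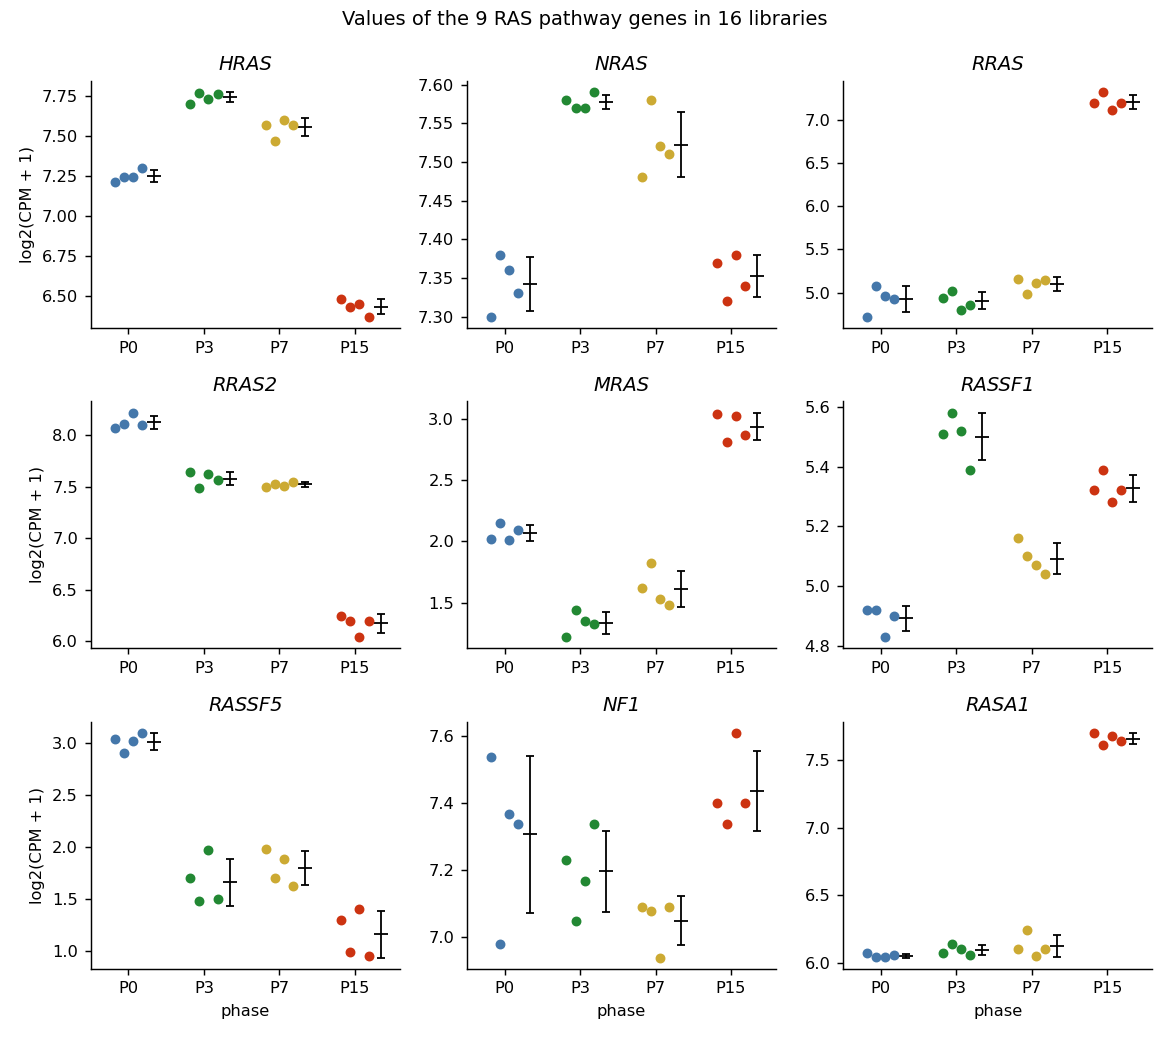
log2(CPM + 1) of each of the 9 genes (y axis, scale differing between panels) in the 4 libraries of each phase (x axis), with the phase mean and SD beside the points. RRAS and RASA1 lie far higher at P15 than in the 12 earlier libraries, RRAS2 and RASSF5 are highest at P0, and the NRAS libraries of P0 and P15 overlap.

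To set the GTPases side by side, CPM was divided by the length of the gene's merged exons in kilobases. On this scale RRAS2 was the highest of the 5 at P0, with 80.6 CPM per kb, followed by HRAS with 62.1, NRAS with 37.3, RRAS with 26.7 and MRAS with 0.511. At P15 the order was RRAS with 133 CPM per kb, NRAS with 37.6, HRAS with 35.1, RRAS2 with 20.6 and MRAS with 1.07. The sum of the 5 was 207 ± 6.76 CPM per kb at P0 and 228 ± 8.22 at P15 (SD, n = 4). RRAS held 12.9% ± 1.04 of that sum at P0, 12.3% at P3, 14.9% at P7 and 58.5% ± 1.56 at P15. RRAS2 held 38.9% ± 1.11 at P0 and 9.05% ± 0.406 at P15, and HRAS went from 30.0% ± 0.968 through 41.1% at P3 to 15.4% ± 0.737.

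The shares depend on the length used. With the length of the canonical transcript in place of the merged exons, RRAS went from 9.10% to 49.9%, RRAS2 from 36.2% to 10.2% and HRAS from 43.1% to 26.8%. The share of NRAS went from 18.0% to 16.5% with merged exons but from 11.4% to 12.6% with the canonical transcript, so its direction depended on the length used. The order turned as well, since with the canonical transcript HRAS was above RRAS2 at P0 and above NRAS at P15. Under both lengths RRAS2 had a higher share than RRAS at P0 and a lower one at P15.

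**Figure D3:**
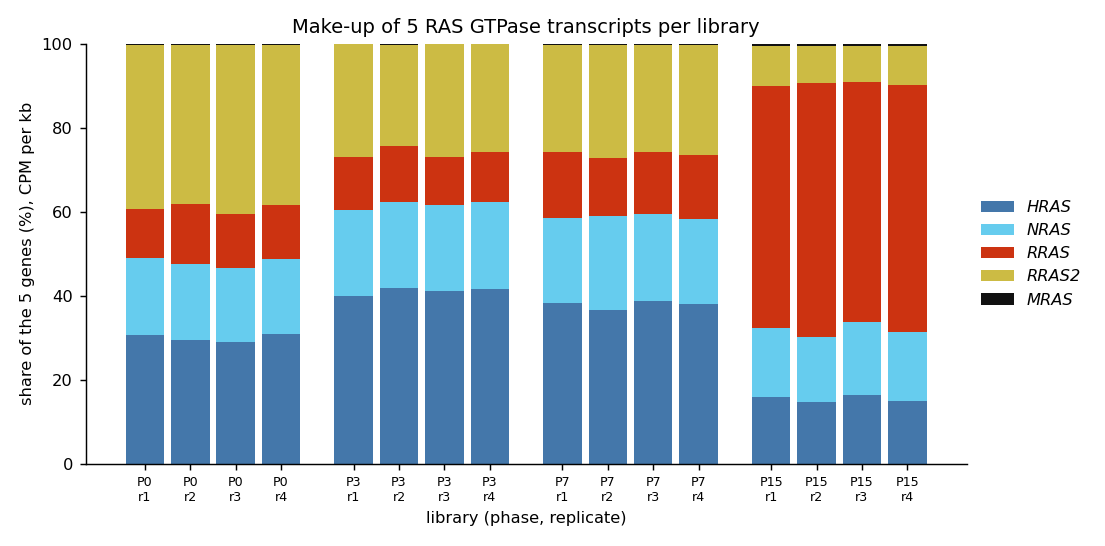
Share (%) of each gene in the summed level of the 5 GTPases, in CPM per kb of merged exons (y axis), for each of the 16 libraries (x axis, by phase and replicate). RRAS takes 57.0 to 60.6% in the P15 libraries and 11.5 to 15.6% in the other 12.

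Ratios of genes within a library do not depend on the scaling between libraries. The log2 difference of RRAS to HRAS was -2.49, -2.16, -2.28 and -2.37 in the P0 libraries and 0.72, 0.89, 0.66 and 0.83 at P15. It thus moved by 3.10 on the log2 scale, an 8.57-fold shift towards RRAS. The exact permutation test gave p = 0.0286, two-sided, and 0.029 is the smallest value that 4 against 4 libraries allow. RRAS rose and HRAS fell without overlap between these phases, so full separation of the ratio was fixed beforehand and this p adds no support. RRAS2 to NRAS was 0.77, 0.73, 0.86 and 0.77 at P0 and -1.12, -1.12, -1.34 and -1.14 at P15, a shift of -1.96 (exact permutation test, p = 0.0286, two-sided). NRAS differed by only 0.01 between these phases, so this shift and its p nearly repeat the change of RRAS2 alone (-1.95). At P3 and P7 this second ratio lay between -0.08 and 0.06, and the ratio of RRAS to HRAS between -2.93 and -2.41.

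**Figure D4:**
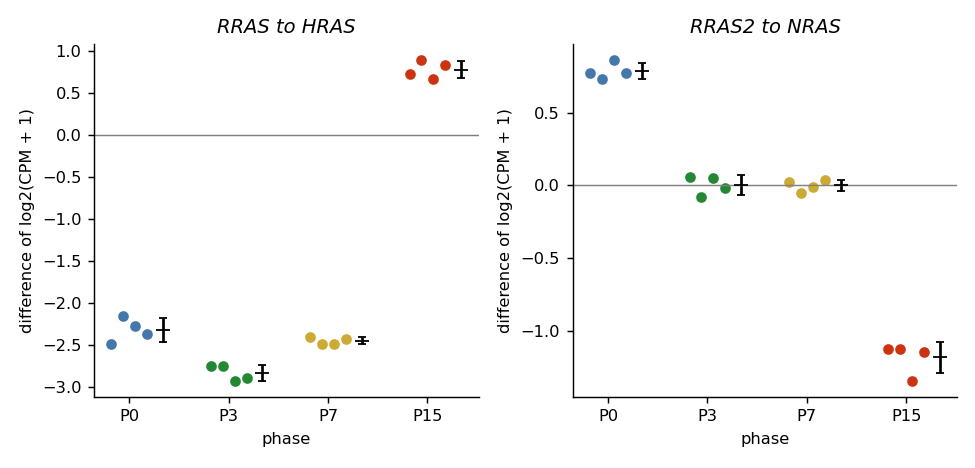
Difference of log2(CPM + 1) between RRAS and HRAS (left) and between RRAS2 and NRAS (right) within each library (y axis) by phase (x axis), with mean and SD of 4 libraries. RRAS to HRAS is below 0 in the 12 libraries of P0, P3 and P7 and above 0 at P15. RRAS2 to NRAS lies above 0 at P0, near 0 at P3 and P7 and below 0 at P15.

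RASSF1 and RASSF5 encode proteins that bind active RAS-like GTPases and connect them to the MST kinases of the Hippo pathway, and both are known as tumour suppressors that are silenced in many cancers. RASSF1 (chr3:50329782-50340980, minus strand) had 4.92, 4.92, 4.83 and 4.90 at P0, 5.51, 5.58, 5.52 and 5.39 at P3, 5.16, 5.10, 5.07 and 5.04 at P7, and 5.32, 5.39, 5.28 and 5.32 at P15. Its lowest phase was therefore P0 and its highest P3, and only P3 and P15 overlapped, at a difference of -0.17 (adjusted p = 0.0012). From P0 to P3 it rose 1.52-fold (0.61, SE 0.05, adjusted p = 2.7e-11), from P3 to P7 it fell by 0.41 (adjusted p = 5.5e-08), and from P7 to P15 it rose by 0.24 (adjusted p = 4.2e-05). Of its merged exons, 17.9% are shared with the antisense gene RASSF1-AS1, which did not exceed a mean of 0.012 CPM in a phase. The best known isoforms of RASSF1 start at different promoters and are not separated by a value per gene.

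RASSF5 (NORE1 or RAPL), which binds RAS and RAP1, had the largest fold change of the 9 genes at the first step. It lies on the plus strand at chr1:206507531-206589448. The P0 libraries had 3.04, 2.91, 3.02 and 3.10, and the P3 libraries 1.70, 1.48, 1.97 and 1.5. The P7 libraries had 1.98, 1.70, 1.89 and 1.63, which overlapped with P3, and the P15 libraries had 1.30, 0.99, 1.40 and 0.95, below every other library. Its level fell 2.56-fold from P0 to P3 (-1.36, SE 0.12, adjusted p = 3.4e-10) and 1.56-fold from P7 to P15 (-0.64, adjusted p = 2e-05). In CPM the mean was 7.11 ± 0.440 at P0 and 1.25 ± 0.350 at P15 (SD, n = 4). The difference between P3 and P7 was 0.14, with an interval of -0.10 to 0.38.

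RefSeq lists 2 start sites of RASSF5 that lie 49633 bases apart, and the 250 bases before each are shown because the gene fell at least 2-fold and its 2 forms differ in their first exon. Both are on the plus strand of GRCh38.p14, chr1:206507281-206507530 for the canonical start and chr1:206556914-206557163 for the internal one. Capitals mark matches to SP1 (GGGCGG), AP-1 (TGANTCA) and the ETS core (GGAAGT) on either strand.
RASSF5 canonical start: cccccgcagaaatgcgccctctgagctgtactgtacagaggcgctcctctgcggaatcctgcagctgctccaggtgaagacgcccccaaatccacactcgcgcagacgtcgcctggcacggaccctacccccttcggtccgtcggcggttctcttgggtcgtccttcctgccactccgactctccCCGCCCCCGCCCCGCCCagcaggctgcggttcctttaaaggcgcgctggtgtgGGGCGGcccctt
RASSF5 internal start: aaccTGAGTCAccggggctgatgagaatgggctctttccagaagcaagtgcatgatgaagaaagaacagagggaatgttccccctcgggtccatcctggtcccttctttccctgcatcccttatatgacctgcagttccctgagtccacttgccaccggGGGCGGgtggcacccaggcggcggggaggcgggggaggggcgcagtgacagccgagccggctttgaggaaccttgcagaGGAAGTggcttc
The canonical window held 4 SP1 matches, some of them overlapping, and 23 CpG dinucleotides. The internal window held 1 match each to AP-1, the ETS core and SP1, and 10 CpG dinucleotides. Among all promoters of this length, AP-1 letters occurred in 6.6% and the ETS core in 19.5%. The table gives 1 value for the gene, so the use of each start site is not measured.

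RASA1 (p120 RasGAP), which returns RAS to its inactive form and is recruited to activated receptors, did not pass the test between any of the phases up to P7 and was higher at P15. It lies on the plus strand at chr5:87267883-87391931. The values were 6.07, 6.04, 6.04 and 6.06 at P0, 6.07, 6.14, 6.10 and 6.06 at P3, and 6.10, 6.24, 6.05 and 6.10 at P7. At P15 they were 7.70, 7.61, 7.68 and 7.64. The earlier 3 phases overlapped and the P15 libraries stood clear of all of them. The step from P7 to P15 was 1.54 (SE 0.04, adjusted p = 8.5e-22), a 2.90-fold rise. Neither the step from P0 to P3 (0.04, interval -0.04 to 0.12) nor that from P3 to P7 (0.03, interval -0.05 to 0.11) passed the test. RASA1 shares 14.7% of its merged exons with CCNH on the opposite strand, whose mean was 57.9 CPM at P0 and 93.0 CPM at P15. The sources used here do not state whether counting used the strand, so reads of the shared bases cannot be told apart.

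NF1, the gene of neurofibromin, the GTPase activating protein lost in neurofibromatosis type 1, had the widest spread of the 9 genes between the libraries of P0 (chr17:31094927-31382116, plus strand). Its values were 7.54, 6.98, 7.37 and 7.34 at P0, 7.23, 7.05, 7.17 and 7.34 at P3, 7.09, 7.08, 6.94 and 7.09 at P7, and 7.40, 7.34, 7.61 and 7.40 at P15. The P0 libraries alone spanned nearly the range of all phases. From P7 to P15, NF1 rose by 0.39 (SE 0.08, adjusted p = 9.7e-05), a 1.31-fold change with no overlap. The other steps did not pass, at -0.11 from P0 to P3 (adjusted p = 0.23) and -0.15 from P3 to P7 (adjusted p = 0.12), nor did P15 against P0 at 0.13, with an interval of -0.04 to 0.30. Over non-adjacent phases NF1 passed at -0.26 for P7 against P0 (adjusted p = 0.0076) and at 0.24 for P15 against P3 (adjusted p = 0.0078), with overlapping libraries in both.

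Single P0 libraries decided some of these calls. Without P0 replicate 2, the lowest of its phase, NF1 at P3 was lower than at P0 by a log2 difference of -0.22 (adjusted p = 0.0029), and the step from P3 to P7 passed at an adjusted p of 0.028. Without P0 replicate 1, the highest of its phase, P15 against P0 was 0.21 (adjusted p = 0.016). The 7 NF1 pseudogenes with a row in the table each held at most 0.005% of the NF1 level. The rise at the last step was thus 2.90-fold for RASA1 and 1.31-fold for NF1, the other activating protein of the set.

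The patterns most like those of RRAS and RRAS2, the genes that rose and fell most on the log2(CPM + 1) scale, were looked up by Pearson's r of the log2 values over the 16 libraries. RCN3, a calcium-binding protein of the endoplasmic reticulum (r = 0.9957), NPNT, the matrix protein nephronectin (r = 0.9955), and SEMA4B, a membrane semaphorin (r = 0.9953), followed RRAS most closely. With a pseudocount of 0.1 in place of 1, RASSF5 fell more than RRAS2, at -2.45 against -1.97 between P0 and P15. The correlations with RRAS rest on the contrast between P15 and the rest, since 1245 tested genes (9.4%) had an r above 0.95 with RRAS. NPNT had a mean of 0.23 at P0 and 5.65 at P15, so a like shape went with a much larger rise. For RRAS2 the nearest genes were PCNA, the sliding clamp of DNA replication (r = 0.9950), TSPAN14, a tetraspanin (r = 0.9948), and MFHAS1 (r = 0.9943), and 589 genes (4.4%) were above 0.95. The mean of PCNA went from 8.60 at P0 through 8.08 and 8.02 to 6.52 at P15.

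Around the 9 genes, 94 others of RAS signalling were listed by role, of which 76 were tested. Between P0 and P15, 41 of them rose and 30 fell, where 86.2% of all tested genes passed (6002 higher and 5421 lower), which is also the background of the counts by role that follow. At least 2-fold, 12 rose and 7 fell, which is 25.0% of the list beside 23.6% of all genes. At the step from P0 to P3, 1 rose and 1 fell at least 2-fold, 2.6% of the list beside 4.46% of all genes. Among 4 tested exchange factors, which load RAS with GTP, 2 rose and 2 fell, RASGRF1 from 2.36 to 0.17 (-2.19, adjusted p = 1.3e-17) and RASGRP2 from 0.93 to 2.15 (1.23, adjusted p = 5.5e-10) by at least 2-fold. Of 5 other GTPase activating proteins, 3 rose and 2 fell, with DAB2IP at -1.33 (adjusted p = 6.7e-20) and RASA3 at 0.18 (adjusted p = 1e-05). The 3 SPRED genes, whose proteins bring neurofibromin to the membrane, divided into 1 that rose and 2 that fell, SPRED1 by -1.10 (adjusted p = 1.3e-18) and SPRED3 by -0.24 (adjusted p = 0.0037).

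Effectors and other branches moved in both directions too. Of 6 other RASSF genes, 2 rose and 4 fell, with RASSF10 at -2.75, RASSF7 at -2.64 and RASSF4 at 1.76 between P0 and P15. In the MST module that RASSF proteins bind, 2 of 3 genes rose, SAV1 by 0.45 and STK3 by 0.29. Of the SHOC2 complex and LZTR1, with which MRAS acts in part, 1 gene rose and 3 of 5 fell, PPP1CA by -1.03 and SHOC2 by -0.63, while the MRAS level itself was 0.87 higher. Among 8 RAF, MEK and ERK kinases and scaffolds, 6 rose and 2 fell, among them MAP2K2 (MEK2) at 0.81 and MAP2K1 (MEK1) at -0.39. Of 8 other effectors, 5 rose and 2 fell, among them PLCE1 at 0.99 and RGL1 at -0.99. Each value named here had an adjusted p of at most 7.8e-06 by limma.

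Among 13 tested small GTPases of the RAS branch outside the 9 genes, 7 rose and 5 fell. DIRAS3, an imprinted gene known as a growth suppressor, went from 0.45 ± 0.14 at P0 to 5.37 ± 0.09 at P15 (SD, n = 4), a difference of 4.93 (SE 0.09, adjusted p = 4.7e-24), and its relative DIRAS1 from 0.15 to 4.39. Both RAL genes, RALA at -0.75 and RALB at -0.62, fell. Of 10 genes that attach, trim or carry the lipid tail of RAS, 4 rose and 6 fell, none by 2-fold, with ICMT at -0.91 and FNTB at -0.82. The list named ERK feedback holds 11 genes, both feedback inhibitors and other output genes of ERK signalling. It had the highest median of the lists, 1.57 beside 0.042 for all genes, with 8 higher and 2 lower. IER3 went from 7.83 to 10.89 and SPRY1, an inhibitor of RAS to ERK signalling, from 0.35 to 3.04, whereas DUSP4, an ERK phosphatase, went from 6.43 to 4.49. FOSL1, a subunit of AP-1 that ERK stabilises, was at -0.51. RNA levels of these genes do not measure the activity of RAS or ERK.

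**Figure D5:**
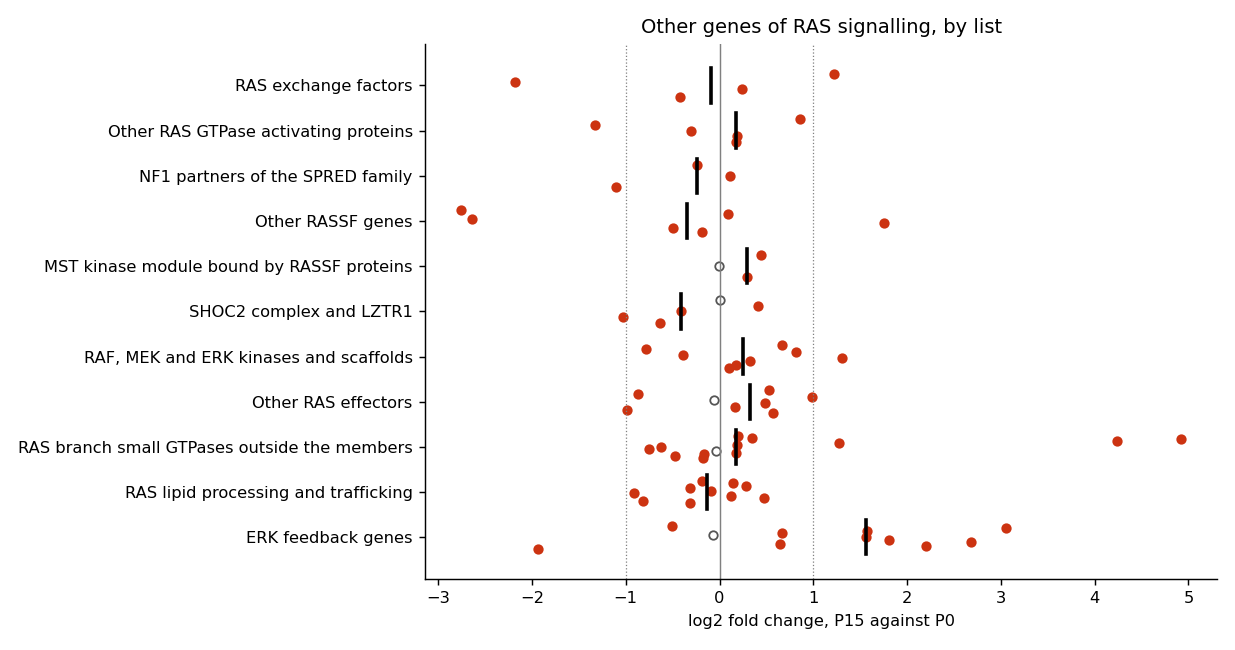
Log2 fold change of P15 against P0 (x axis) for the 76 tested genes of RAS signalling outside the 9, by list (y axis). Filled points have an adjusted p below 0.05 by limma, open points do not, black bars are list medians and dotted lines mark 2-fold. The ERK feedback list has the highest median, and DIRAS1 and DIRAS3 are the points farthest to the right.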

How the data were processed

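The data were RNA-sequencing values of 16 libraries, 4 for each of the phases P0, P3, P7 and P15. Per the study's methods, reads were aligned to GRCh38 with STAR 2.6.1a and counted on genes with featureCounts. The values deposited by the authors are log2(CPM + 1), given to 2 decimals. The quantile normalization and median centring that the methods also name were not seen in them. Above the lowest values the rounding hides single counts, so no count model was run.

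All 16 libraries entered a single fit in limma 3.58.1 (R 4.3.3) with a term for each phase and a variance prior that followed expression. P-values were adjusted by Benjamini-Hochberg over 13249 genes, those that averaged more than 1 CPM. Ratios of genes within a library were compared by exact permutation tests. Coordinates and exon lengths are those of GENCODE 44 on GRCh38, and promoters those of RefSeq, in which 8 of the 9 genes had a row. RRAS had none.

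The 9 genes, the lists of other RAS signalling genes and the tests were chosen with earlier results of these data known. From each list, up to 2 genes with the largest rise and 2 with the largest fall between P0 and P15 were named, and for RRAS and RRAS2 the 3 genes most like them. Some genes that this rule selects are not reported here. Replicates are numbered as in the sample descriptions, and 14 libraries bear another number in their title. Alternatives comprised quantile normalization, equal library medians, filters on low values, pseudocounts of 0.1 and 5, a replicate block, fits of each pair of phases alone and fits without each library in turn.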

Additional observations from a re-analysis of the deposited data

Results flagged for a closer look

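NF1 at P7 was the only 1 of 36 sets of 4 libraries (9 genes in 4 phases) with a library far from the other 3. P7 replicate 3 had 6.94 and the others 7.08 to 7.09, so its gap to the nearest library was 0.933 of the range of the phase. About 1.8 such sets arise by chance at 1 in 20. The step of NF1 from P7 to P15 passed the test with each library left out in turn.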

How the results depend on the processing

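Of 986 values of the 36 changes of single genes under the alternatives, 971 kept their direction and their side of the threshold, 3 no longer passed, 7 newly passed and 5 changed sign. Many of these values could not change sign. Leaving out a library of a phase outside the comparison leaves the log2 fold change as it was. So do a replicate block, the filters on low values and a fit of the pair alone. Such fits alter only the p-value or whether a gene is tested. The sign changes were of differences near 0. RRAS between P0 and P3 was 0.035 without P0 replicate 2 and 0.018 without P3 replicate 3, and lowest at -0.085 without P0 replicate 1. RASA1 between P3 and P7 was -0.0092 without P7 replicate 2 and highest at 0.054 without P7 replicate 3. NRAS between P0 and P15 was -0.013 after a shift to the same library median and -0.0042 without P0 replicate 1. With quantile normalization, NRAS (0.06, adjusted p = 0.047) and NF1 (0.18, adjusted p = 0.033) passed between P0 and P15. With no filter on low values, RRAS between P3 and P7 did not pass (adjusted p = 0.055), and with the libraries of P3 and P7 alone NF1 passed between them (adjusted p = 0.023).

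The count of the 9 genes with a 2-fold change from P0 to P3, which was 1, became 0 where a gene had to reach 1 CPM in all 16 libraries, since RASSF5 was then not tested. It became 2 with a pseudocount of 0.1 and 0 with a pseudocount of 5. From P7 to P15 the count of 5 became 4 with a pseudocount of 5, where MRAS stood at 0.72. Between P0 and P15 the count of 4 became 3 with 1 CPM in all libraries and 5 with a pseudocount of 0.1. MRAS was then at 1.04, and RASSF5 was at -0.95 with a pseudocount of 5. Leaving out single libraries gave 3.05 to 3.16 for the shift of RRAS to HRAS and -1.98 to -1.91 for that of RRAS2 to NRAS, each at p = 0.057, the smallest that 3 against 4 libraries allow by the exact permutation test. Over all tested genes, 2-fold changes from P0 to P3 numbered 591, against 939 with a pseudocount of 0.1, 290 with a pseudocount of 5 and 381 with 1 CPM in all libraries. From P3 to P7 they numbered 243, against 445, 106 and 138. With a pseudocount of 5 the count fell from 3376 to 2166 between P7 and P15 and from 3126 to 1976 between P0 and P15.

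With the replicate number as a block, 6, 4, 9 and 7 of the 9 genes passed in the comparisons of P3 with P0, P7 with P3, P15 with P7 and P15 with P0, as without it. Deviations of same-numbered libraries correlated at -0.15 to 0.22 over 24 pairs, and only 1 pair was above 0.1, so the numbers were not treated as pairs. With P15 replicate 1 as the only P15 library, which was chosen after seeing the data, 9 and 7 of the 9 genes passed at P15 against P7 and against P0, and 10470 and 10364 of the 13249 tested genes did. That fit takes the spread from the other phases and assumes that the lone library varies as they do. The comparison of shares by canonical transcript length was also added after seeing the data. At these depths the lowest level, RASSF5 at P15, rested on the fewest counts.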

Other observations

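RCN3, the gene most like RRAS over the 16 libraries, lies 88.3 kb from it on chromosome 19, at chr19:49528003-49546962. Its mean went from 0.82 at P0, 0.94 at P3 and 1.12 at P7 to 5.37 at P15. Tested genes within 1 Mb of each of the 9 genes were therefore counted between P0 and P15, a description chosen after these values were seen. Among all 13249 tested genes, 6002 rose and 5421 fell between these phases, with 1609 higher and 1517 lower by at least 2-fold. Around RRAS, 41 of 51 neighbours rose and 8 fell, 22 rose and 2 fell at least 2-fold, and their median log2 fold change was 0.843, beside 0.042 for all tested genes. Around HRAS, 4 of 38 neighbours rose and 32 fell, 0 rose and 18 fell at least 2-fold, and the median was -0.644, beside -0.82 for HRAS itself.

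The surroundings of the other genes were less one-sided or held few tested genes. RRAS2 had 6 tested neighbours, of which 1 rose and 5 fell, with a median of -0.501. RASA1 had 3, all of which rose, none by 2-fold, with a median of 0.675. Around NF1, 14 of 22 rose and 5 fell (median 0.475), around RASSF1 16 of 32 rose and 12 fell (0.142), around NRAS 7 of 13 rose and 4 fell (0.095), and around RASSF5 9 of 17 rose and 6 fell (0.07). MRAS rose while 8 of its 11 neighbours fell (median -0.285). RASSF5 fell by 1.86 on the log2 scale with neighbours near the median of all genes. Neighbouring genes are not independent of each other, and no test was made of these counts.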
